A study of Mus musculus with 55 samples.

Results

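The FGF-ERK feedback genes were followed through exit from mitosis in mouse embryonic stem (ES) cells. The set was given as 10 genes chosen by name: Fgf4, Fgfr1, Fgfr2, Etv4, Etv5, Dusp6, Spry2, Spry4, Spred1 and Spred2. The rule used no measured value, but earlier results of these data were known when the set was chosen. Of these, 9 were listed in both deposited tables, of 9574 genes that the tables share. The row of Fgfr2 was in neither table, so Fgfr2 is not described further.

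FGF4, which ES cells secrete themselves, binds FGF receptors, chiefly FGFR1 in these cells, and drives RAS, RAF, MEK and ERK. In ES cells this route primes cells to leave the naive pluripotent state, and inhibitors of MEK are used in culture to hold cells there. ERK raises transcription of the ETS factors ETV4 and ETV5 and of its own brakes: DUSP6 is a phosphatase that takes the activating phosphates off ERK, the Sprouty proteins SPRY2 and SPRY4 dampen receptor signalling upstream of RAS and RAF, and the SPRED proteins restrain RAS through neurofibromin.

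Libraries came from 2 lines derived from E14Tg2a (129/Ola) ES cells grown with serum and LIF, the cytokine that sustains ES cells. CCNA-GFP cells carry a cyclin A reporter (19 libraries), and CTCF-AID cells, a single clone, carry CTCF fused to an auxin-inducible degron, so that the auxin IAA triggers loss of the CTCF protein (36 libraries, 18 without and 18 with IAA). All synchronised cells, controls included, spent 4 h in the CDK1 inhibitor RO-3306 (10 µM) and a further 4 h in nocodazole (50 ng/ml), which blocks spindle assembly. Mitotic cells were shaken off and released, and IAA at 0.5 mM was present over the last 2 h of nocodazole and throughout the release, while unsynchronised cells of the +IAA arm were treated in parallel for 4 h. Asynchronous and mitotic cells had 3 replicates in each line and arm. The stages at 20, 40, 60, 90 and 120 min after release had 2 replicates, as had 30 min in CCNA-GFP and 50 min in CTCF-AID, while 50 min in CCNA-GFP was a single library. Not every stage held the same replicates: those at 20, 40, 60 and 120 min were numbers 1 and 2, whereas those at 30 and 90 min, and at 50 min in CTCF-AID, were numbers 1 and 3.

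The values were TPM, transcript abundances scaled for length and library size, of a pre-mRNA isoform added to each gene, a measure that follows ongoing transcription, since introns are soon spliced out. TPM keep no read counts, so depth and counting error are unknown, and differences were set against the spread between replicates. In bulk samples a change in the share of cells that transcribe a gene and a change in the amount per cell cannot be told apart. The listed TPM summed to 13747 to 42576 per library in CCNA-GFP and to 17702 to 43370 in CTCF-AID, lowest in mitosis and at 20 min, so that a rise from mitosis was shared by most genes. The median change of all genes at 60 min was 0.79 in CCNA-GFP, 0.63 in CTCF-AID -IAA and 0.63 in CTCF-AID +IAA, on the scale of log2(TPM + 1) on which all changes below are given and which understates the change of low genes. Changes are therefore given as deposited and, for the main comparisons, also relative to all listed genes, that is, with every library scaled to the same total. Of 10 ES cell markers 9 were listed, with a summed level of 80.3 to 149 TPM in asynchronous CCNA-GFP and 80.0 to 160 TPM in asynchronous CTCF-AID libraries. Over the libraries of all stages the lowest sum was 34.05 TPM in CCNA-GFP and 45.1 TPM in CTCF-AID. No endoderm marker of 6 was listed, and the listed markers of mesoderm (T, Eomes and Tbx6) reached at most 5.84 TPM together. Summed neural markers (Pax6 and Nes, with Ncam1 in CCNA-GFP) reached 6.66 TPM in CCNA-GFP and 10.8 TPM in CTCF-AID, fibroblast markers (Vim, with Col1a1 and Thy1 in CTCF-AID) 5.37 and 9.96 TPM, and of trophoblast Cdx2 alone was listed, in CTCF-AID only, at up to 3.51 TPM. These maxima of other lineages were taken over all stages. In asynchronous libraries alone neural markers reached 4.05 TPM in CCNA-GFP and 3.43 TPM in CTCF-AID, fibroblast markers 2.67 and 3.72 TPM, and Cdx2 0.37 TPM. The part of these markers in the results was not tested.

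Promoter sequences are shown for the 3 genes that, as deposited, rose by 40 min in every series (Dusp6, Spry2 and Fgf4) and for Etv5, which had passed the test by 60 min but not at 40 min, so that the regions before a RefSeq start site of each can be set side by side. They are the 250 bases before the RefSeq start site on GRCm38.p6, written 5′ to 3′ on the gene's strand, with letters that matched a searched motif in capitals. RefSeq promoters were matched for 7 of the 10 genes, and Etv5 had 2 start sites, of which the upstream one is printed. Gencode vM21 has transcripts of Dusp6, Spry2, Fgf4 and Etv5 that begin right after these windows. It also has a longer one of Fgf4, which begins 14019 bases upstream of the printed start site, and 2 of Etv5 that begin 46 and 149 bases upstream, within the window. Which start sites the cells use was not tested. The Dusp6 window lies on chr10:99262981-99263230 (plus strand), Spry2 on chr14:105896820-105897069 (minus), Fgf4 on chr7:144861136-144861385 (plus) and Etv5 on chr16:22439571-22439820 (minus).
Dusp6: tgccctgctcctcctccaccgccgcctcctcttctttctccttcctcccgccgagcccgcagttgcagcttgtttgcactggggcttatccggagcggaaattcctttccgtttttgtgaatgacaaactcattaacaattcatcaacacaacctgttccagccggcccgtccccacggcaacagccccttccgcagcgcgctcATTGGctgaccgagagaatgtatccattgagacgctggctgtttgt
Spry2: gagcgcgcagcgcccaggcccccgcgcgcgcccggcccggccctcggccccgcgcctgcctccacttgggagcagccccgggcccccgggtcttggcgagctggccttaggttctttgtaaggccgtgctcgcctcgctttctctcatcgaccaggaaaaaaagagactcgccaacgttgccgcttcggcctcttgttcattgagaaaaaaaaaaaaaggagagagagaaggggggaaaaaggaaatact
Fgf4: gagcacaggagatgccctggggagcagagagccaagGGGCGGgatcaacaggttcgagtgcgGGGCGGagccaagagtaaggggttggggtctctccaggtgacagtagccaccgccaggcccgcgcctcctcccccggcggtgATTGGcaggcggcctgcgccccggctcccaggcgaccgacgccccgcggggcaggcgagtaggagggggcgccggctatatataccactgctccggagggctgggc
Etv5: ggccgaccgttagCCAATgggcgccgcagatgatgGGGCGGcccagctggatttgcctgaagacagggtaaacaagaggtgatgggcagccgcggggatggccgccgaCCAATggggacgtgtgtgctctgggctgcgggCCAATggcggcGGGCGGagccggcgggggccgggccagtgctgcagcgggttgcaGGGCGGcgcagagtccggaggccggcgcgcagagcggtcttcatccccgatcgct

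Both strands of these windows were searched for motifs tied to growth factor signalling, namely the ETS site CCGGAAGT, the cyclic AMP response element (CRE) TGACGTCA, and the AP-1 site TGANTCA bound by FOS and JUN. The CArG box of serum response factor and the core motif of CTCF were searched by name. General promoter motifs were the GC box GGGCGG, which SP1 binds, the CCAAT box, the TATA box as TATAAA, and the E-box as CACGTG. A motif on the other strand is printed as its reverse complement. Dusp6 held a CCAAT box that starts 46 bases before the start site, and no other searched motif. Fgf4 held GC boxes at 214 and 188 bases and a CCAAT box at 106 bases before the start. Etv5 held 3 GC boxes (at 215, 99 and 55 bases) and 3 CCAAT boxes (at 237, 142 and 110 bases). The window of its second start site (chr16:22438369-22438618, minus strand; 62.0% G and C) held a single CCAAT box, at 224 bases, and no GC box. Spry2 held none of the letters searched. For comparison, 33.8% of all 32851 promoters of the same length held a CCAAT box and 32.7% a GC box, and the ETS, CRE and CArG motifs were in 2.88%, 1.55% and 1.47%. G and C made up 56.4% of the Dusp6 window, 62.4% of Spry2, 71.2% of Fgf4 and 71.2% of Etv5, against a median of 52.4% over all promoters. A match is a run of letters and no evidence that a factor binds there.

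The genes differ widely in structure. On Gencode vM21 (GRCm38), Dusp6 spans 4259 bp (chromosome 10, 99263231 to 99267489) and only 26.5% of its span lies outside every annotated exon. Spry2 spans 4873 bp (chromosome 14, 105891947 to 105896819), with 57.2% in no exon. Spred2 is the longest listed member, at 99652 bp (chromosome 11, 19924375 to 20024026), with 95.4% in no exon, followed by Fgfr1 at 62065 bp on chromosome 8, Spred1 at 60906 bp on chromosome 2 and Etv5 at 58411 bp on chromosome 16. Fgf4 (chromosome 7), Etv4 (chromosome 11) and Spry4 (chromosome 18) span 17877, 15630 and 15169 bp. A pre-mRNA value of Dusp6 therefore rests on few bases that its mature RNA lacks, and how far reads of mature RNA enter it was not tested.

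In asynchronous CCNA-GFP cells the most abundant pre-mRNA of the set was that of Spry4, at 12.1 ± 4.08 TPM (SD, n = 3). Etv5 (9.97 ± 2.97), Spry2 (8.22 ± 2.46), Spred2 (6.58 ± 2.70), Spred1 (4.48 ± 1.09), Dusp6 (4.22 ± 0.975), Etv4 (3.06 ± 1.81) and Fgfr1 (2.48 ± 0.625; all TPM, SD, n = 3) followed. Each of these overlapped with its neighbour in the order. Fgf4, at 0.728 ± 0.20 TPM (SD, n = 3), stood apart below all others, with its highest library (0.930 TPM) under the lowest of Fgfr1 (1.80 TPM). In asynchronous CTCF-AID -IAA cells Spry4 was again highest in mean (12.1 ± 6.01 TPM, SD, n = 3) and Fgf4 lowest (0.619 ± 0.186 TPM, SD, n = 3). The tables were normalised separately, so no test was made between lines.

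**Figure D1:**
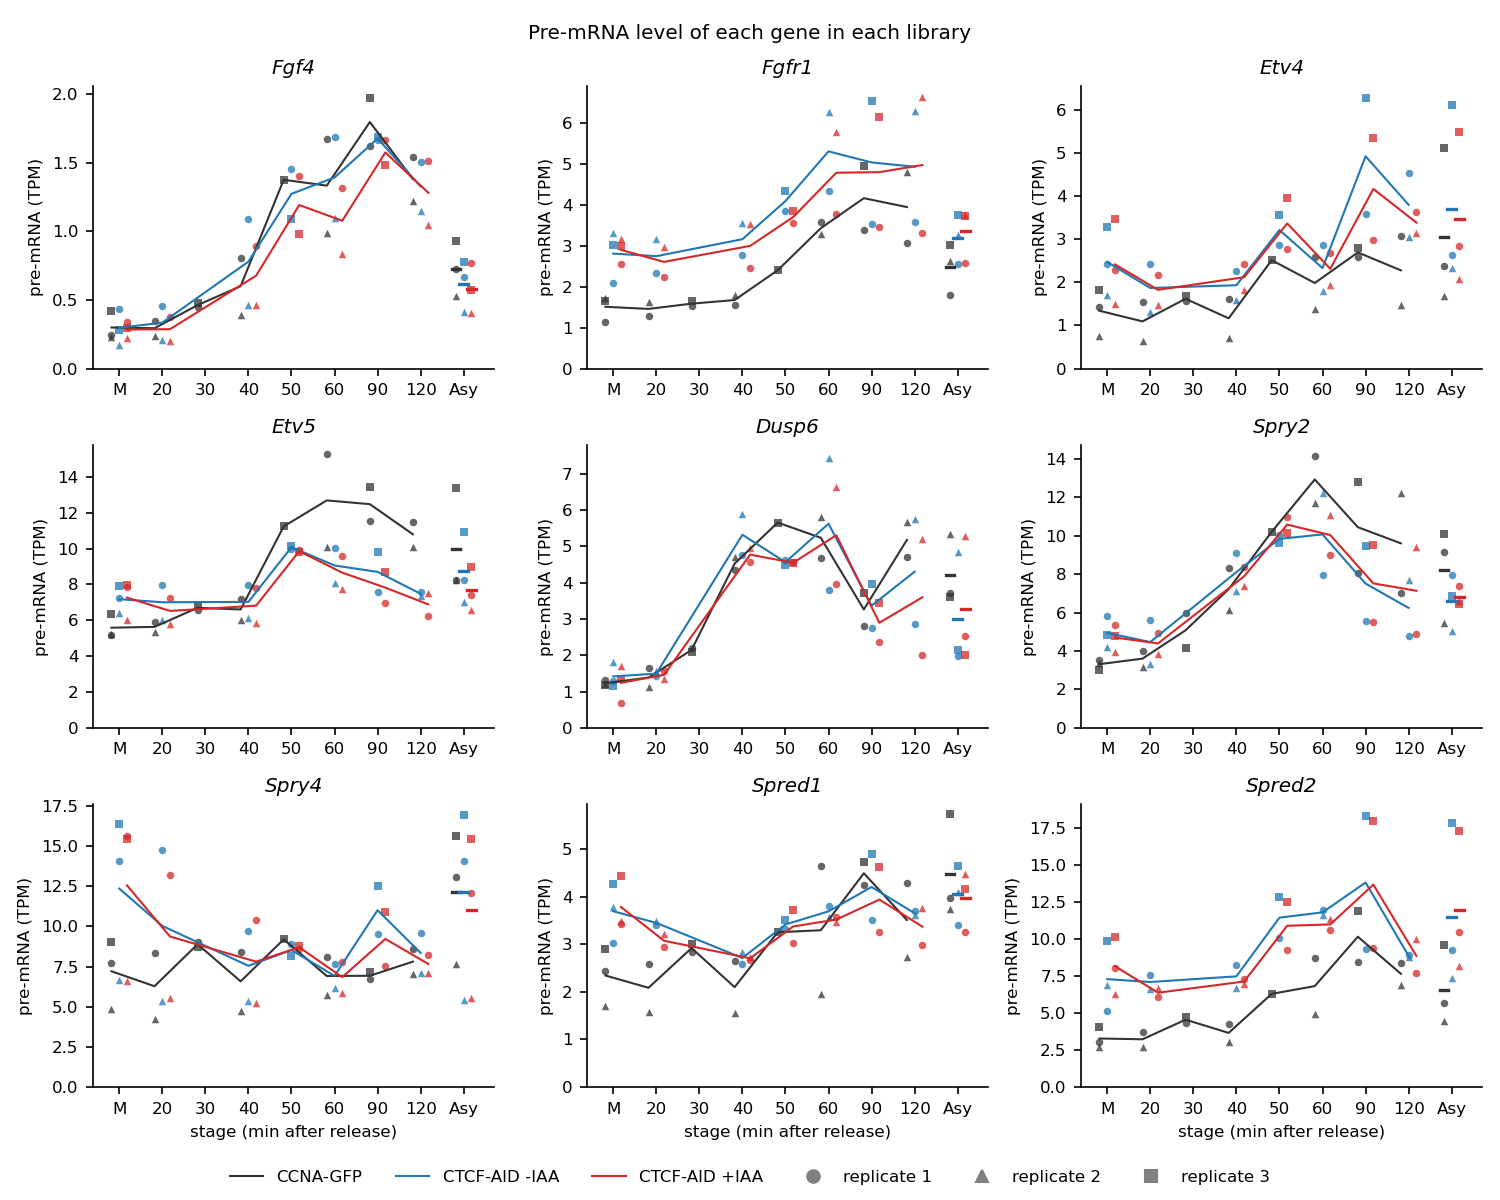
Pre-mRNA level (TPM, y axis from 0) of the 9 listed genes at each stage (x axis; M, mitotic; Asy, asynchronous; numbers, minutes after release). Points are single libraries with a symbol per replicate, and lines and short bars are group means; Fgf4 and Dusp6 climb from mitosis in all 3 series, whereas Spry4 does not.

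Fgf4, the ligand, was scarce in mitosis and rose several-fold. In CCNA-GFP it measured 0.244, 0.233 and 0.422 TPM in the mitotic replicates 1, 2 and 3, and 0.807 and 0.393 TPM at 40 min in replicates 1 and 2. At 60 min it measured 1.67 and 0.990 TPM (replicates 1 and 2), and at 90 min 1.62 and 1.97 TPM (replicates 1 and 3). The libraries at 60 and 90 min lay above every mitotic library. By group means its level at 90 min was 2.46-fold that of asynchronous cells. The asynchronous mean includes replicate 2, the lowest Fgf4 library of every group that held it, so this fold compares unlike replicates. At 40 min the groups overlapped, and the change of 0.36 ± 0.09 (SE; limma adjusted p = 0.00220) was 0.21 without replicate 1 (limma adjusted p = 0.281). Leaving out a replicate leaves a single library at stages that had 2, which the fit assumes to vary like the other groups. In CTCF-AID -IAA the mitotic libraries held 0.435, 0.171 and 0.285 TPM and those at 60 min 1.69 and 1.10 TPM, again without overlap. The mean of Fgf4 at 90 min, where replicate 2 is missing as well, was 5.64-fold that of mitosis. Its change at 60 min was 0.90 ± 0.09 (SE) in CCNA-GFP, 0.89 ± 0.07 in CTCF-AID -IAA and 0.69 ± 0.07 in CTCF-AID +IAA (limma adjusted p 1.09e-08, 1.14e-10 and 4.27e-09), and it was higher in 2 of 2 replicates each time. Against the total of all listed genes Fgf4 was still higher, by 0.39, 0.51 and 0.35 (limma adjusted p 0.000204, 1.19e-07 and 1.73e-05).

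Fgfr1, the receptor, was not called at 40 min in any series with values as deposited. In CCNA-GFP it measured 1.15, 1.73 and 1.66 TPM in mitosis, 1.55 and 1.80 TPM at 40 min, 3.58 and 3.29 TPM at 60 min, and 3.08 and 4.82 TPM at 120 min. Levels at 40 min lay within or just above the mitotic range, and those at 60 and 120 min were all above it. With a change of 0.16 ± 0.13 (SE), Fgfr1 did not pass the test at 40 min (limma adjusted p = 0.309), whereas it did so at 60 min with 0.89 ± 0.13 (limma adjusted p = 1.63e-06). In CTCF-AID the change at 60 min was 0.79 ± 0.13 without and 0.61 ± 0.13 with IAA (limma adjusted p 3.96e-06 and 0.000100). Scaled to the same total, Fgfr1 was lower at 40 min in all 3 series (-0.25, -0.29 and -0.38, limma adjusted p 0.00639, 0.000737 and 4.11e-05), and at 60 min it stood at -0.05, 0.00 and -0.18, of which the last passed the test (limma adjusted p = 0.0251).

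Of the ETS factors, Etv5 passed the test at 60 min in all 3 series and Etv4 in CCNA-GFP. Etv5 in CCNA-GFP measured 5.16, 5.25 and 6.35 TPM in mitosis, 7.17 and 6.04 TPM at 40 min, 15.3 and 10.1 TPM at 60 min, and 11.5 and 10.1 TPM at 120 min. All libraries from 60 min on exceeded the mitotic ones. In CTCF-AID -IAA it moved within a narrower range, from 7.24, 6.39 and 7.89 TPM in mitosis to 10.1 and 8.06 TPM at 60 min. The change of Etv5 at 60 min was 1.15 ± 0.14 (SE) in CCNA-GFP, 0.39 ± 0.11 in CTCF-AID -IAA and 0.32 ± 0.11 in CTCF-AID +IAA (limma adjusted p 2.90e-07, 0.00229 and 0.00988). In relative terms it was at -0.07 in CCNA-GFP (limma adjusted p = 0.425) but lower in CTCF-AID, by -0.49 without and -0.57 with IAA (limma adjusted p 9.13e-08 and 8.77e-09).

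Etv4, the other ETS factor, had its highest mean after release at 90 min in all 3 series. In CCNA-GFP it measured 1.43, 0.764 and 1.83 TPM in mitosis, 2.59 and 1.38 TPM at 60 min, and 3.08 and 1.47 TPM at 120 min, with overlap between the groups. Each library at 60 min was above the mitotic library of its own replicate. In CTCF-AID -IAA it measured 2.41, 1.71 and 3.29 TPM in mitosis, 2.86 and 1.80 TPM at 60 min, and 4.54 and 3.05 TPM at 120 min. The change at 60 min was 0.54 ± 0.14 (SE) in CCNA-GFP (limma adjusted p = 0.000955), and 0.19 ± 0.11 and 0.23 ± 0.11 in CTCF-AID without and with IAA (limma adjusted p 0.114 and 0.0579). Etv4 was higher at 120 than at 60 min in CTCF-AID, by 0.53 ± 0.12 without and 0.41 ± 0.12 with IAA (limma adjusted p 0.000731 and 0.00566), and replicate 1 had its highest post-mitotic level at 120 min in all 3 series. Against all listed genes Etv4 was lower at 60 min in all 3 series (-0.30, -0.50 and -0.46; limma adjusted p 0.0283, 8.69e-05 and 0.000187).

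Dusp6, the ERK phosphatase, was among the earliest to rise. In CCNA-GFP it measured 1.32, 1.20 and 1.18 TPM in mitosis, 1.64 and 1.13 TPM at 20 min, 2.19 and 2.10 TPM at 30 min (replicates 1 and 3) and 4.36 and 4.70 TPM at 40 min. In CTCF-AID -IAA it went from 1.28, 1.81 and 1.16 TPM in mitosis to 4.76 and 5.89 TPM at 40 min, and in CTCF-AID +IAA from 0.681, 1.69 and 1.35 TPM to 4.58 and 4.97 TPM. No library at 40 min overlapped with mitosis, and both libraries at 30 min in CCNA-GFP were already above it. The change at 40 min was 1.29 ± 0.15 (SE) in CCNA-GFP, 1.32 ± 0.21 in CTCF-AID -IAA and 1.33 ± 0.21 in CTCF-AID +IAA (limma adjusted p 8.94e-07, 9.29e-06 and 9.90e-06). The relative changes were 0.94, 0.89 and 0.95 (limma adjusted p 0.000754, 0.000508 and 0.000250). At 60 min the change was 1.46 ± 0.15, 1.34 ± 0.21 and 1.42 ± 0.21 (SE), and at 90 min it was 0.97, 1.02 and 0.98. Dusp6 thus gained most of its rise by 40 min.

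Spry2, a Sprouty inhibitor, passed the test at 40 min with values as deposited but not relative to the total. In CCNA-GFP it measured 3.52, 3.39 and 3.04 TPM in mitosis, 8.33 and 6.11 TPM at 40 min, and 14.2 and 11.7 TPM at 60 min. In CTCF-AID -IAA it measured 5.81, 4.20 and 4.81 TPM in mitosis, 9.08 and 7.14 TPM at 40 min, 7.94 and 12.2 TPM at 60 min, and 4.77 and 7.71 TPM at 120 min. The libraries at 40 and 60 min lay above mitosis in both lines, whereas at 120 min in CTCF-AID replicate 1 was back in the mitotic range. At 40 min the change was 0.97 ± 0.23 (SE) in CCNA-GFP, 0.66 ± 0.26 in CTCF-AID -IAA and 0.69 ± 0.26 in CTCF-AID +IAA (limma adjusted p 0.00174, 0.0258 and 0.0218). At 60 min it was 1.74 ± 0.23, 0.92 ± 0.26 and 1.00 ± 0.26 (limma adjusted p 6.09e-07, 0.00181 and 0.000931). Relative to the total the change of Spry2 at 40 min was 0.48, 0.11 and 0.18 (limma adjusted p 0.109, 0.615 and 0.416), and that at 60 min passed the test in none of the 3 series either (0.57, 0.06 and 0.13; limma adjusted p 0.0509, 0.781 and 0.541). Leaving out replicate 2 took the change of Spry2 at 60 min in CTCF-AID -IAA to 0.54 (limma adjusted p = 0.0728). At 40 min the call of Spry2 was lost without replicate 3 in CTCF-AID -IAA (0.61, limma adjusted p = 0.0838), and without replicate 2 or 3 in CTCF-AID +IAA (0.66 each, limma adjusted p 0.0505 and 0.0640).

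Spry4, the other Sprouty gene, did not rise with the transcriptome. In CCNA-GFP it measured 7.70, 4.88 and 9.05 TPM in mitosis, 8.10 and 5.73 TPM at 60 min and 13.1, 7.65 and 15.6 TPM in asynchronous cells. In CTCF-AID -IAA it was 14.1, 6.66 and 16.4 TPM in mitosis, 14.7 and 5.34 TPM at 20 min, 7.69 and 6.16 TPM at 60 min, and 14.1, 5.41 and 17.0 TPM in asynchronous cells. Replicate 1 was lower at 60 than at 20 min, while replicate 2, low from the start, moved little. Replicate 3, which has no library at 60 min, went from 16.4 TPM in mitosis to 8.16 TPM at 50 min and 12.5 TPM at 90 min without IAA. With IAA it went from 15.4 to 8.81 and 10.9 TPM. The change at 60 min was 0.11 ± 0.14 (SE) in CCNA-GFP (limma adjusted p = 0.437), -0.45 ± 0.20 in CTCF-AID -IAA and -0.49 ± 0.20 in CTCF-AID +IAA (limma adjusted p 0.0423 and 0.0298). Without replicate 1, which leaves replicate 2 alone at 60 min, the change there was -0.05 and -0.06 (limma adjusted p 0.735 and 0.677), whereas at 90 min, which then holds replicate 3 alone, it was -0.41 and -0.55 and passed the test (limma adjusted p 0.0257 and 0.00829). The change at 60 min also missed the threshold without replicate 3 (limma adjusted p 0.0993 and 0.0546) and in a fit with no replicate block (-0.68 and -0.71, limma adjusted p 0.191 and 0.170). Scaled to the same total Spry4 was lower at 60 min in all 3 series, by -1.08, -1.33 and -1.38 (limma adjusted p 1.34e-05, 7.53e-08 and 3.49e-08). In asynchronous cells the relative change against mitosis was 0.12 in CCNA-GFP, -0.25 in CTCF-AID -IAA and -0.41 in CTCF-AID +IAA, of which only the last passed the test (limma adjusted p = 0.0127).

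Of the Spred genes, Spred2 passed the test at 60 min in all 3 series and Spred1 in CCNA-GFP. Spred2 in CCNA-GFP measured 3.07, 2.72 and 4.05 TPM in mitosis, 4.26 and 3.05 TPM at 40 min, 8.71 and 4.91 TPM at 60 min, and 8.40 and 6.88 TPM at 120 min, so that libraries from 60 min on were above mitosis. Its change at 60 min was 1.02 ± 0.14 (SE) in CCNA-GFP, 0.90 ± 0.16 in CTCF-AID -IAA and 0.64 ± 0.16 in CTCF-AID +IAA (limma adjusted p 1.53e-06, 1.14e-05 and 0.000587), and scaled to the same total it passed the test in none of the 3 (-0.11, 0.01 and -0.26). Spred1 measured 2.44, 1.69 and 2.90 TPM in mitosis and 4.64 and 1.94 TPM at 60 min in CCNA-GFP, and 3.02, 3.78 and 4.27 TPM in mitosis, 2.57 and 2.85 TPM at 40 min and 3.80 and 3.58 TPM at 60 min in CTCF-AID -IAA. At 40 min in CTCF-AID both libraries were below every mitotic library, with changes of -0.26 ± 0.09 without and -0.29 ± 0.09 with IAA (limma adjusted p 0.0156 and 0.00790). That call of Spred1 was lost in CTCF-AID -IAA without replicate 1, 2 or 3, with changes that stayed close in size (-0.32, -0.22 and -0.24; limma adjusted p 0.0555, 0.116 and 0.0532) and in CTCF-AID +IAA without replicate 2 (-0.27, limma adjusted p = 0.0619). Without replicate 1 or 2 the stage at 40 min is 1 library. At 60 min the change of Spred1 was 0.43 ± 0.14 in CCNA-GFP (limma adjusted p = 0.00664; 0.12 without replicate 1, limma adjusted p = 0.507) and 0.08 ± 0.09 in CTCF-AID -IAA (limma adjusted p = 0.393). Against all listed genes Spred1 was lower at 60 min in all 3 series, by -0.58, -0.70 and -0.79 (limma adjusted p 8.01e-05, 3.30e-06 and 5.18e-07).

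Counted as deposited, 0 of the 9 genes passed the test at 20 min in any series (limma, 0 at an unadjusted p under 0.05), a stage at which 0% of all genes were called higher. At 30 min in CCNA-GFP, 0 of 9 were called by limma (Dusp6 alone had an unadjusted p under 0.05) and 0.303% of all genes were higher. At 40 min Dusp6, Spry2 and Fgf4 were higher in CCNA-GFP (3 of 9, against 49.3% of all genes), in CTCF-AID -IAA (3 of 9, against 63.3%) and in CTCF-AID +IAA (3 of 9, against 58.7%), and Spred1 was lower in both CTCF-AID arms, where 3.21% and 3.87% of all genes were lower. In CCNA-GFP 0 of 9 were lower (against 0.0404%). At 60 min 8 of 9 were higher in CCNA-GFP, all but Spry4 (against 88.3%), and 6 of 9 in each CTCF-AID arm (Dusp6, Etv5, Fgf4, Fgfr1, Spred2 and Spry2, against 84.8% without and 82.2% with IAA), with Spry4 lower (against 2.70% and 4.04%). At 50 min in CTCF-AID the count was 6 of 9 without IAA (against 79.1%) and 5 of 9 with it, where Spred2 did not pass (against 78.2%), and Spry4 was again lower, by -0.72 and -0.71 (against 4.56% and 5.37%). Without replicate 3 Spry4 lost that call in both arms (-0.52 and -0.63, limma adjusted p 0.129 and 0.0701), and it lost it without the replicate block as well (-0.40 and -0.39, limma adjusted p 0.434 and 0.449). In CTCF-AID +IAA Etv5 (0.25) and Fgfr1 (0.25) were not called without replicate 1, which left 3 of 9 higher, and Fgfr1 (0.32) was not called without replicate 2. At 90 min the higher members were 8 of 9 in CCNA-GFP (against 89.1%) and 5 of 9 in CTCF-AID without and with IAA (against 74.8% and 73.8%), with 0 of 9 lower without IAA (against 3.37%) and Spry4 lower by -0.66 with it (against 4.41%). At 120 min the counts were 8 of 9 (against 90.2%), 5 of 9 (69.6%) and 5 of 9 (68.2%), the latter being Dusp6, Etv4, Fgf4, Fgfr1 and Spred2, and none was lower (against 0.656%, 3.15% and 4.42% of all genes). In CCNA-GFP none was lower at 60 or 90 min either (against 0.515% and 0.948%). Shares of the set at 60 min were thus near or below those of all genes. The median change of the members at 60 min was 0.90 in CCNA-GFP, 0.79 in CTCF-AID -IAA and 0.61 in CTCF-AID +IAA, beside 0.79, 0.63 and 0.63 over all genes.

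Asynchronous cells were also set against mitosis. In CCNA-GFP 9 of 9 genes were higher in asynchronous than in mitotic cells, from 0.41 for Fgf4 to 1.21 for Dusp6, with 3 of 3 replicates higher for each (70.4% of all genes were higher and 1.97% lower), and all 9 were above the median change of all genes, 0.33. In CTCF-AID 4 of 9 were higher without IAA (against 34.3%) and 4 of 9 with IAA (against 40.9%), in both arms Dusp6, Etv4, Fgf4 and Spred2, and 0 of 9 were lower (against 5.25% and 5.89%). The change of Dusp6 was 0.66 ± 0.19 (SE) without and 0.89 ± 0.19 with IAA (limma adjusted p 0.00808 and 0.000635). Without the replicate block the counts were 8 of 9 in CCNA-GFP, 0 of 9 in CTCF-AID -IAA and 1 of 9 in CTCF-AID +IAA. Scaled to the same total, 7 of 9 were higher in CCNA-GFP, all but Spry4 and Fgfr1 (against 24.8% of all genes), and 0 of 9 lower (against 20.3%). In CTCF-AID -IAA Dusp6, Spred2, Fgf4 and Etv4 were higher in relative terms (4 of 9, against 27.2%) and none was lower (against 21.4%). In CTCF-AID +IAA Dusp6, Fgf4 and Spred2 were higher (3 of 9, against 29.8%), and Spry4 (-0.41) and Etv5 (-0.14, limma adjusted p = 0.0218) were lower (2 of 9, against 22.4%). As deposited, Spred2 lost its call in both arms without replicate 1 (0.44 and 0.53, limma adjusted p 0.0954 and 0.0515) or without replicate 3 (0.41 and 0.34, limma adjusted p 0.0797 and 0.118). Etv4 lost it in CTCF-AID -IAA without replicate 3 (0.19, limma adjusted p = 0.152) and in CTCF-AID +IAA without replicate 2 (0.38, limma adjusted p = 0.0539).

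With libraries scaled to the same total, members were called in both directions. At 40 min Dusp6 and Fgf4 were higher in all 3 series (2 of 9 each time, against 23.7%, 33.3% and 33.2% of all genes), and 6, 5 and 6 of 9 were lower (against 31.3%, 36.7% and 38.6%), namely Spry4, Spred1, Etv4, Etv5 and Fgfr1 in each series and Spred2 in CCNA-GFP and CTCF-AID +IAA. At 60 min Dusp6 and Fgf4 were higher in all 3 series (2 of 9 each time, against 36.4%, 39.4% and 40.7% of all genes). Lower were Etv4, Spred1 and Spry4 in CCNA-GFP (3 of 9, against 33.3%), those with Etv5 in CTCF-AID -IAA (4 of 9, against 31.1%), and those with Etv5 and Fgfr1 in CTCF-AID +IAA (5 of 9, against 33.2%). The share of members called higher at 60 min was thus below that of all genes in each series, and 4, 3 and 2 of 9 were called in neither direction. Dusp6 was higher at every tested stage from 40 min on except 90 min in CCNA-GFP (0.16, limma adjusted p = 0.418). Fgf4 was higher at every tested stage from 40 min on. The single 50 min library of CCNA-GFP was not tested. For Fgf4 the relative changes at 40, 90 and 120 min were 0.21, 0.51 and 0.53 in CCNA-GFP and 0.26, 0.74 and 0.70 in CTCF-AID -IAA (replicates 1 and 2 at 40 and 120 min, and 1 and 3 at 90 min in both lines), whereas Dusp6 had its largest relative change at 40 min in the CTCF-AID arms and in CCNA-GFP. Spry4 and Spred1 were lower at every tested stage from 40 to 120 min in all 3 series. The lowest value of Spry4 was at 50 min in CTCF-AID (-1.55 without and -1.59 with IAA).

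**Figure D2:**
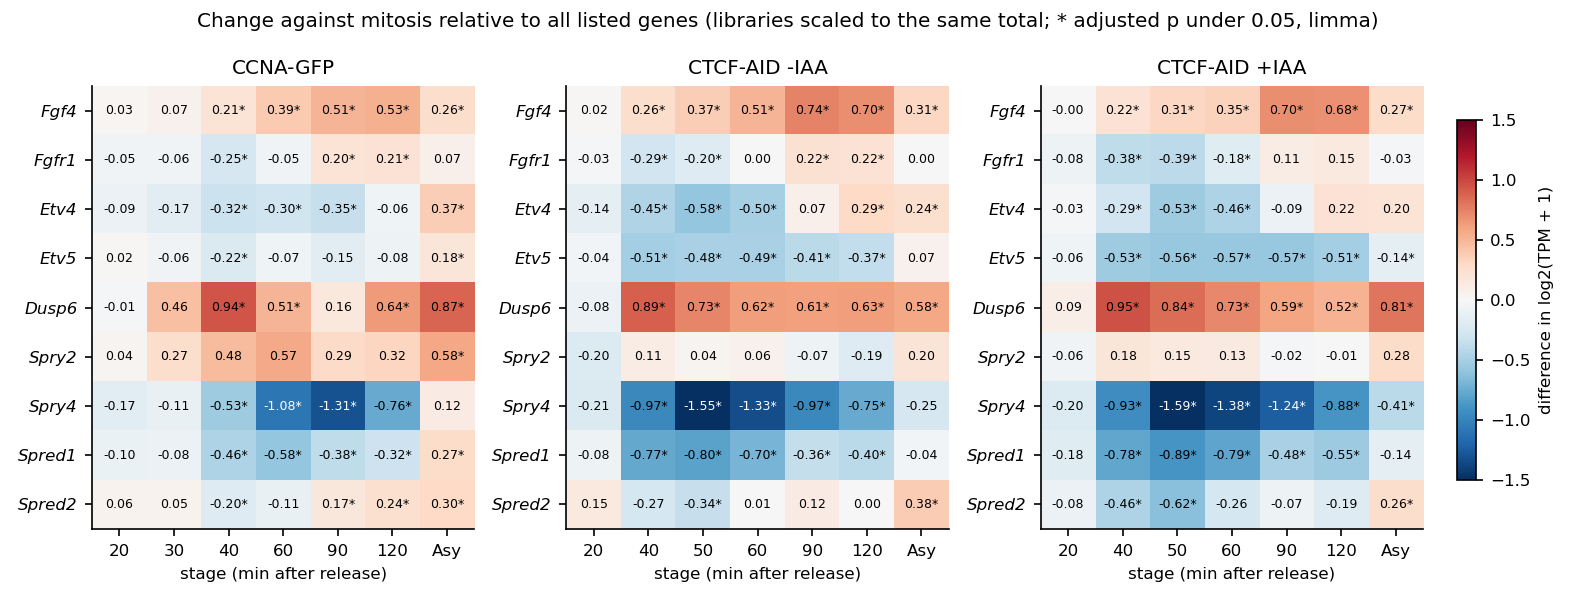
Change of each gene (rows) against mitosis at each stage (columns; minutes after release or asynchronous, Asy) in the 3 series, as the difference in log2(TPM + 1) after all libraries were scaled to the same total of listed TPM. Red is higher and blue lower than mitosis relative to all listed genes, and an asterisk marks a limma adjusted p under 0.05; Dusp6 and Fgf4 form red rows and Spry4 and Spred1 blue rows from 40 to 120 min.

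**Figure D3:**
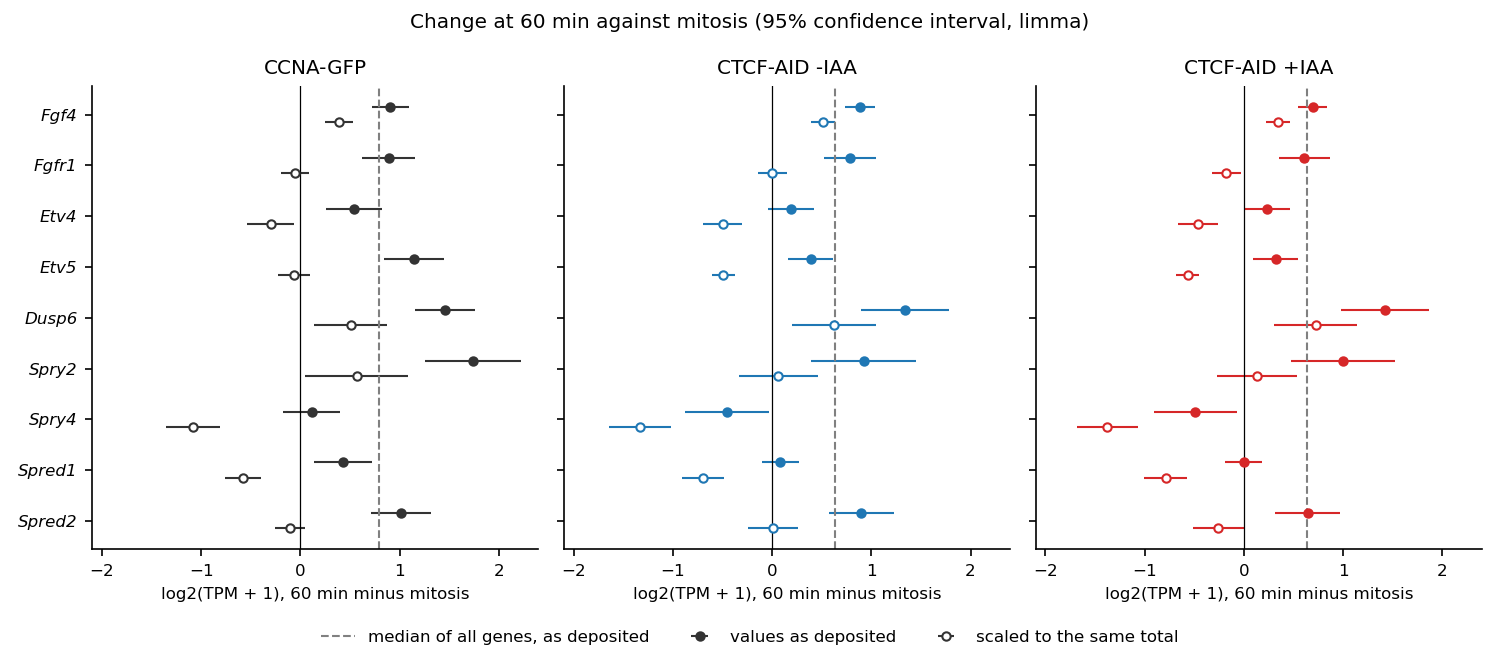
Change at 60 min against mitosis (x axis, difference in log2(TPM + 1)) for each gene, with values as deposited (filled) and with libraries scaled to the same total (open). Bars are 95% confidence intervals from limma and the dashed line is the median of all genes as deposited; the scaling takes Spry4 from 0.11 to -1.08 in CCNA-GFP and leaves Dusp6 and Fgf4 above 0 in all 3 panels.

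Whether reactivated pre-mRNA went beyond the level of asynchronous cells was read from 60 min against asynchronous cells. In CCNA-GFP Spry2 (0.68 ± 0.23, SE), Fgf4 (0.50 ± 0.09), Etv5 (0.44 ± 0.14) and Fgfr1 (0.43 ± 0.13) were higher, 4 of 9 against 67.0% of all genes, and Spry4 was lower (-0.55 ± 0.14, limma adjusted p = 0.00144), 1 of 9 against 8.60%. In CTCF-AID -IAA Dusp6 (0.68 ± 0.21), Fgfr1 (0.64 ± 0.13), Fgf4 (0.57 ± 0.07), Spry2 (0.57 ± 0.26) and Spred2 (0.36 ± 0.16) were higher, 5 of 9 against 75.2%, and none was lower (against 7.06%). In CTCF-AID +IAA Dusp6, Etv5, Fgf4 and Fgfr1 were higher, 4 of 9 against 72.2%, and none was lower (against 8.24%). Fgf4 and Fgfr1 thus passed in all 3 series. At 120 min both did so again, with Fgf4 at 0.54, 0.54 and 0.54 and Fgfr1 at 0.57, 0.53 and 0.47 above asynchronous cells. The counts at 120 min were 3 of 9 in CCNA-GFP (against 63.4%), in CTCF-AID -IAA (51.0%) and in CTCF-AID +IAA (47.2%). Spry4 was lower in CCNA-GFP (-0.38, 1 of 9 against 5.86%), and none was lower in CTCF-AID (against 7.25% and 8.43%). Scaled to the same total, Fgf4 was still higher at 120 min (0.27, 0.39 and 0.41, limma adjusted p 0.00455, 8.89e-06 and 4.75e-06), whereas Fgfr1 was higher in CTCF-AID alone (0.22 and 0.17, limma adjusted p 0.00960 and 0.0378) and at 0.14 in CCNA-GFP (limma adjusted p = 0.0792). These were 1, 2 and 2 of 9, against 26.8%, 26.9% and 26.2% of all genes. Lower in relative terms were Spry4, Spred1 and Etv5 in every series, with Etv4 in CCNA-GFP and Spred2 in CTCF-AID (4 of 9 each time, against 24.9%, 27.7% and 29.2%). As deposited, calls at 120 min also changed when a replicate was left out. Without replicate 2, Fgfr1 lost its call at 120 min in both CTCF-AID arms (0.34 and 0.26, limma adjusted p 0.150 and 0.294), while Fgf4 kept its call in each leave-one-out fit. Etv4 lost its call at 120 min in both arms without replicate 1 (0.19 and 0.35) or 2 (0.40 and 0.17). In CCNA-GFP Spred2 lost its call without replicate 1 (0.40) or 2 (0.35), and Spry4 without replicate 1 (-0.15) or 3 (-0.33).

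Several of these calls were lost when a replicate was left out, some with changes of like size. The stage at 60 min holds replicates 1 and 2, so that without either it is 1 library, whose spread is taken from the other groups. Without replicate 1, Etv5 (0.16) and Fgfr1 (0.20) lost the call at 60 min against asynchronous CCNA-GFP cells, Spry4 was at -0.41 (limma adjusted p = 0.0770), and the count of higher genes went from 4 to 2. In CTCF-AID -IAA the count of 5 became 3 without replicate 1, where Dusp6 (0.67) and Spred2 (0.42) lost the call, and 3 without replicate 2, where Spry2 (0.12) and Spred2 (0.22) lost it, and without replicate 3 Spry2 lost it (0.56, limma adjusted p = 0.0876). In CTCF-AID +IAA Etv5 lost the call without replicate 1, 2 or 3 (0.20, 0.29 and 0.27), Dusp6 without replicate 1 (0.50) or 3 (0.39) and Fgfr1 without replicate 2 (0.41). In relative terms Fgf4 alone was still higher in CTCF-AID -IAA (0.20, limma adjusted p = 0.00423; 1 of 9 against 37.5%), and none of the 9 was in the other series. Lower in relative terms in all 3 series were Spry4, Spred1, Spred2, Etv4 and Etv5 (5 of 9, against 35.2%, 32.9% and 33.9%).

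From 60 to 120 min 0 of 9 genes were called in CCNA-GFP (0 at an unadjusted p under 0.05 by limma; 9.60% of all genes were higher and 28.5% lower). In CTCF-AID Etv4 was higher in both arms (7.31% and 7.61% of all genes were higher; 53.1% were lower without IAA), and Etv5 was lower with IAA (-0.29 ± 0.12, SE, limma adjusted p = 0.0399), where 50.8% of all genes were lower. In CTCF-AID +IAA the call of Etv4 was lost without replicate 1 (0.49, limma adjusted p = 0.0520) or 2 (0.33, limma adjusted p = 0.188), and that of Etv5 without replicate 1 (-0.03, limma adjusted p = 0.843) or 3 (-0.29, limma adjusted p = 0.0607). Scaled to the same total, 3 of 9 were higher at 120 than at 60 min in CCNA-GFP (Spred1, Spred2 and Fgfr1, against 24.4% of all genes). In CTCF-AID -IAA 5 of 9 were higher (Etv4, Spry4, Spred1, Fgfr1 and Fgf4, against 25.6%) and in CTCF-AID +IAA 4 of 9 (Etv4, Spry4, Fgf4 and Fgfr1, against 26.6%). None was lower in relative terms (against 21.7%, 26.5% and 27.2%).

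The comparison of IAA arms asked whether loss of CTCF changed the level of these pre-mRNAs. IAA acts on the protein, so the pre-mRNA of Ctcf does not check the labels; its mean change after release was 0.10 and was not called (limma adjusted p = 1, and 0.493 with the replicate as a block). It was higher with IAA in 11 of 12 pairs of the same replicate number after release, as 1.21% of all genes were in 11 or 12, and in 3 of 3 asynchronous pairs. At the 8 stages 0 of 9 genes were called (limma, adjusted p under 0.1 and an absolute change above 0.2), and 0 of 72 values had an unadjusted p under 0.05, beside at most 0.694% of all genes called lower and 0.313% higher at any stage, both in asynchronous cells. An unadjusted p under 0.05 was itself rare in this fit. Of 10237 genes 4 higher and 19 lower had one in mitotic cells, and 121 and 165 in asynchronous cells. Arms at the same stage deviated together by replicate number (r from 0.513 to 0.884), which a fit with no block leaves in the spread. The 0 of 72 is therefore weak evidence that IAA had no effect. The 72 differences between +IAA and -IAA ran from -0.24 to 0.16. Averaged over 20 to 120 min, no gene was called either, beside 1.35% of all genes lower and 0.371% higher. The mean effect was -0.10 for Dusp6 (95% interval -0.40 to 0.20), -0.08 for Fgf4 (-0.22 to 0.07), -0.08 for Etv5 (-0.24 to 0.09), -0.07 for Fgfr1 (-0.31 to 0.17), -0.06 for Spred1 (-0.20 to 0.07), -0.06 for Spred2 (-0.35 to 0.23), -0.06 for Spry4 (-0.49 to 0.37), -0.03 for Etv4 (-0.33 to 0.27) and 0.04 for Spry2 (-0.20 to 0.27). These intervals are from the fit with no replicate block. They leave room for changes in either direction, with the widest for Spry4.

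Libraries of the same replicate number can be set side by side. Over the 6 stages after release, Fgf4, Fgfr1 and Etv5 were lower with IAA in 11 of 12 pairs each, Spred1 and Dusp6 in 9, Spred2 in 8, Spry4 in 7, Etv4 in 6 and Spry2 in 4. Over all 10237 genes the median was 7 of 12 pairs, and 9.66% of genes were lower with IAA in 11 or 12. At 60 min Fgf4 measured 1.69 and 1.10 TPM without and 1.32 and 0.837 TPM with IAA. The arms overlapped, while both replicates were lower with IAA. With the replicate as a block the effect on Fgf4 at 60 min was -0.20 (limma unadjusted p = 0.0155, adjusted p = 0.722), the one member and stage of 72 with an unadjusted p under 0.05. In the same fit the mean effect of Fgf4 was -0.08 with an interval of -0.14 to -0.01 and an unadjusted p of 0.0209, which after adjustment over all genes was 0.315 (limma). No member was called at any stage in that fit, beside up to 1.53% of all genes lower and 0.899% higher at a stage, both in asynchronous cells, or in the mean, beside 1.67% lower and 0.449% higher. Arms did not overlap in 6 of 72 pairs of gene and stage, beside 13.9% over all genes. The difference between the mean effect after release and the effect in asynchronous cells ran from -0.20 (Dusp6) to 0.08 (Etv5), with 0 of 9 called (0.00977% of all genes were higher).

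**Figure D4:**
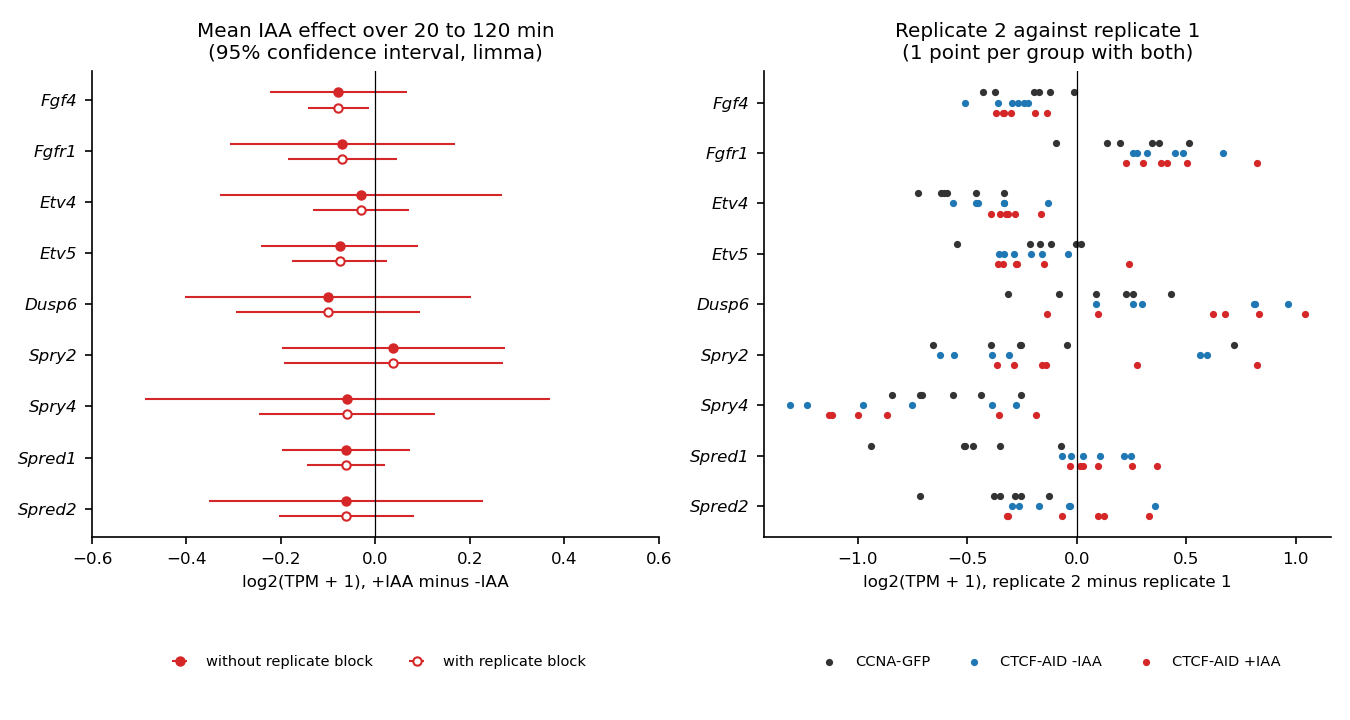
Left, mean difference between +IAA and -IAA over 20 to 120 min (x axis, log2(TPM + 1)) with 95% confidence intervals from limma, without (filled) and with (open) the replicate as a block; all 9 means lie between -0.10 and 0.04. Right, difference between replicate 2 and replicate 1 (x axis, log2(TPM + 1)) in each group that holds both, coloured by series; Spry4, Etv4 and Fgf4 lie below 0 in every group.

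Replicates differed from each other in a way that recurred across stages, lines and arms. Replicate 2 was the lowest library in 18 of 18 groups that held it for Spry4, Etv4 and Fgf4, and in 16 of 18 for Etv5. It was the highest in 15 of 18 groups for Dusp6 and Fgfr1. Apart from asynchronous and mitotic cells these groups held 2 libraries, so that lowest or highest there means below or above replicate 1. How many of all genes recur in this way was not counted. The median difference between replicate 2 and replicate 1 was -0.73 for Spry4, -0.37 for Etv4, -0.28 for Fgf4, 0.28 for Dusp6 and 0.36 for Fgfr1, beside a typical gene at -0.10 in CCNA-GFP and -0.08 in CTCF-AID. In asynchronous CTCF-AID -IAA cells Spry4 measured 14.1, 5.41 and 17.0 TPM while Dusp6 measured 1.99, 4.84 and 2.13 TPM, so replicate 2 was low in one and high in the other. What set replicate 2 apart was not tested. Since replicate 2 is missing at 90 min and replicate 3 at 60 min, group means at these stages hold different replicates; within replicate 1 alone, Fgf4 was highest at 60 min rather than 90 min in CCNA-GFP (1.67 TPM) and in CTCF-AID -IAA (1.69 TPM), and Spred2 at 60 min in all 3 series.

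Other genes of the pathway, a list of 49, were described by role. At 60 min against mitosis 39 of 44 listed genes were higher and 0 lower in CCNA-GFP, with a median change of 0.81 beside 0.79 for all genes, of which 88.3% were higher. In CTCF-AID 39 of 45 were higher without and 36 of 45 with IAA, against 84.8% and 82.2% of all genes. These shares are close to those of all genes, and the counts by role stand beside the same percentages. Among other negative regulators 12 of 13 were higher in every series, led by Errfi1, an inhibitor of EGF receptor family kinases (1.84 in CCNA-GFP), Dusp5, a phosphatase of nuclear ERK (1.71), and Spred3, another SPRED gene. Of the kinase cascade 12 of 13 were higher in CCNA-GFP (12 and 10 of 13 in CTCF-AID without and with IAA), led by Hras (1.59), and of the adaptors and exchange factors 6 of 7 (7 and 6 of 8 in CTCF-AID), led by Shc1 (1.55), which couples receptors to RAS. Of the transcription factors downstream 7 of 7 were higher in CCNA-GFP and 5 of 6 in each CTCF-AID arm. Of the remaining ligands and receptors 2 of 4 were higher in CCNA-GFP and 3 of 5 in each CTCF-AID arm. The ligand gene Fgf17 was lower in CTCF-AID (-0.42 and -0.51, limma adjusted p 0.0140 and 0.00391) and Nf1, which encodes neurofibromin, in CTCF-AID +IAA (-0.23, limma adjusted p = 0.0191; -0.12 without IAA, limma adjusted p = 0.215). These were 1 of 45 without and 2 of 45 with IAA, against 2.70% and 4.04% of all genes. At 40 and 50 min Nf1 was lower in both arms (-0.22 and -0.33 without IAA, -0.30 and -0.40 with it, limma adjusted p 0.0340, 0.00157, 0.00589 and 0.000269). Fgf17 was also lower at 50 min in both arms, and Gab1 with IAA. With Nf1 these were 2 of 45 and 3 of 45, against 4.56% and 5.37% of all genes. At 90 and 120 min Fgf17 was lower in both arms and Fgf15 without IAA. These were 2 of 45 without IAA (against 3.37% and 3.15%) and 1 of 45 with it (against 4.41% and 4.42%). In CCNA-GFP Fgf15 was lower at 120 min (1 of 44, against 0.656%). Scaled to the same total, 17 of 44 were higher and 13 lower at 60 min in CCNA-GFP (against 36.4% and 33.3% of all genes). In CTCF-AID 17 of 45 were higher and 9 lower without IAA (against 39.4% and 31.1%), and 13 higher and 11 lower with it (against 40.7% and 33.2%). In relative terms Errfi1 (0.88), Dusp5 (1.01), Hras (0.88) and Shc1 (0.45) were still higher in CCNA-GFP, and Fgf17 and Nf1 were lower in all 3 series (-0.89, -1.11 and -1.20 for Fgf17; -0.53, -0.78 and -0.90 for Nf1). No gene of the list was called for IAA at any stage.

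Profiles were compared over the 25 group means of both lines, with libraries scaled to the same total and each table centred on its own mean, over the 6604 genes whose mean reached 1 TPM in both tables. The genes most like Dusp6 were H3f3b (Pearson r = 0.886) and Id3 (0.863), and those most like Spry2 were Tgif1 (0.864) and Rpl14 (0.847). Spry4 was nearest to Tet1 (0.981) and Xxylt1 (0.974), Spred1 to Farsb (0.986) and Alkbh1 (0.976), Spred2 to Zyg11a (0.944) and Slc29a1 (0.935), and Fgfr1 to Tial1 (0.958) and Trmt44 (0.944). Etv4 was nearest to Rpap1 (0.939) and Triml2 (0.928), Etv5 to Eif4e2 (0.958) and Scai (0.958), and Fgf4 to Gpc2 (0.958) and 2810410L24Rik (0.958). Within the set Spry4 and Spred1 had r = 0.915, Spred1 and Etv5 0.895, and Dusp6 and Spry2 0.698, whereas the sister genes Spry2 and Spry4 had -0.250 and Fgf4 and Spry4 -0.619. These values describe 25 points that share libraries, scaling and replicates, and carry no test.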

How the data were processed

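The data were 19 CCNA-GFP and 36 CTCF-AID RNA-seq libraries. The authors aligned ribo-depleted, stranded, paired-end reads to mm10 with STAR, and ran RSEM against Gencode vM12 annotation extended by 1 pre-mRNA isoform for every gene. They deposited that isoform's TPM for genes whose mean passed 0.5 TPM when asynchronous or at 2 or more post-mitotic stages (9911 and 10237 genes). Genes also had to be in the curated RefSeq set, so a gene can be missing for either reason. The versions of STAR and RSEM are not given in the sources used here. Low values are whole multiples (within 0.1) of a step per library, 0.01 TPM multiplied by a factor (2.17 to 3.81 and 1.84 to 2.79) that the methods do not name. Headers of the asynchronous CTCF-AID columns are garbled, and their stage was read from the names in a supplementary dataset.

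Differences were tested with limma 3.58.1 (R 4.3.3; lmFit, and eBayes with a trend) on log2(TPM + 1), with Benjamini-Hochberg adjustment over all genes of a comparison. Stage comparisons had the replicate as a block and an adjusted p threshold of 0.05. IAA comparisons had no block, and thresholds of 0.1 and of 0.2 for the absolute change. Same-numbered libraries deviated together from their group means in each line (CCNA-GFP, r from 0.13 to 0.802 over 20 stage pairs; CTCF-AID, from 0.11 to 0.884 over 88), all above 0.1, so the numbers pair the libraries, which the study calls independent replicates; p-values measure the spread between them. The 50 min CCNA-GFP library was given no test. On simulated data with a small share of genes raised at 60 min alone, the fits recovered most of these genes. The simulated data had no rise shared by most genes, and the changes were far larger than the IAA differences. They therefore do not show how the fits behave in either case. The members, the lists and the rule for naming genes were chosen with earlier results of these data known. The rule took all listed members, 2 nearest profiles each, up to 5 of the largest pathway changes in each direction called at 60 min in CCNA-GFP, and Ctcf. As 0 pathway genes were called lower there, those named as lower after release were added outside that rule. Alternatives were the block, a pseudocount of 0.1, scaling to the same total, a mean of at least 1 TPM, each replicate left out (a library left alone at its stage is assumed to vary like the other groups) and, added after seeing the data, division by the factor. Python 3.11.15, numpy 2.4.6, pandas 2.3.3 and matplotlib 3.10.9 served for the rest.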

Additional observations from a re-analysis of the deposited data

Results flagged for a closer look

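Several genes changed against mitosis in opposite directions in 2 series, in every replicate pair of each, and none of these differences was tested. Values are means over pairs of libraries with the same replicate number, as deposited, and not the fitted changes given elsewhere. Spry4 at 60 min changed by a mean of 0.13 in CCNA-GFP, but by -0.45 in CTCF-AID -IAA and -0.53 in CTCF-AID +IAA (2 pairs each). In asynchronous cells Spry4 was 0.66 above mitosis in CCNA-GFP and -0.19 in CTCF-AID +IAA (3 pairs each). Etv5 at 20 min was at 0.10 in CCNA-GFP and -0.07 in CTCF-AID +IAA, and at 40 min at 0.29 and -0.02. Etv4 at 40 min was at -0.06 in CTCF-AID -IAA and 0.12 in CTCF-AID +IAA. None of these values of Etv4 and Etv5 passed the test in its own comparison. In the fit, which also uses the third mitotic library, Etv5 at 40 min (0.32 in CCNA-GFP and 0.010 in CTCF-AID +IAA) and Etv4 at 40 min (0.015 and 0.15 in CTCF-AID without and with IAA) did not have opposite signs, whereas the others did. With libraries scaled to the same total, the changes of Spry4 at 60 min (-1.08, -1.33 and -1.38), of Etv5 at 40 min (-0.22 and -0.53) and of Etv4 at 40 min (-0.45 and -0.29) had the same sign in these series. Opposite signs remained after scaling for Spry4 in asynchronous cells (0.12 in CCNA-GFP and -0.41 in CTCF-AID +IAA) and for Etv5 at 20 min (0.022 and -0.060). Groups of 2 or 3 libraries are too small for a check of single outlying libraries.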

How the results depend on the processing

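The IAA calls (0 members at each stage and in the mean) were the same under each alternative that was run, the replicate block included. With a pseudocount of 0.1, 2 single-gene values crossed the threshold (Dusp6 at 30 min in CCNA-GFP, adjusted p = 0.0394, and Etv4 at 60 min in CTCF-AID +IAA, adjusted p = 0.0443). The cause of these shifts was not tested beyond the construction of the settings. TPM without counts and 2 or 3 libraries a group limit what can be detected, and the stage at 50 min in CCNA-GFP has no replicate.

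Without the replicate block, which paired the libraries, the number of genes called changed in CCNA-GFP from 1 to 0 lower (60 min against asynchronous), from 4 to 2 higher (60 min against asynchronous), and in CTCF-AID -IAA from 5 to 2 higher (120 min against mitosis), from 4 to 0 higher (asynchronous against mitosis), from 1 to 0 lower (60 min against mitosis), from 5 to 3 higher (60 min against asynchronous), from 3 to 1 higher (120 min against asynchronous), from 1 to 0 either way (120 min against 60 min), and in CTCF-AID +IAA from 6 to 3 higher (60 min against mitosis), from 5 to 2 higher (120 min against mitosis), from 4 to 1 higher (asynchronous against mitosis), from 1 to 0 lower (60 min against mitosis), from 4 to 1 higher (60 min against asynchronous), from 3 to 1 higher (120 min against asynchronous), from 2 to 0 either way (120 min against 60 min). With libraries scaled to the same total, it changed in CCNA-GFP from 8 to 2 higher (60 min against mitosis), from 8 to 4 higher (120 min against mitosis), from 0 to 3 lower (60 min against mitosis), from 1 to 5 lower (60 min against asynchronous), from 4 to 0 higher (60 min against asynchronous), from 3 to 1 higher (120 min against asynchronous), from 0 to 3 either way (120 min against 60 min), and in CTCF-AID -IAA from 6 to 2 higher (60 min against mitosis), from 1 to 4 lower (60 min against mitosis), from 0 to 5 lower (60 min against asynchronous), from 5 to 1 higher (60 min against asynchronous), from 1 to 5 either way (120 min against 60 min), and in CTCF-AID +IAA from 6 to 2 higher (60 min against mitosis), from 5 to 2 higher (120 min against mitosis), from 1 to 5 lower (60 min against mitosis), from 0 to 5 lower (60 min against asynchronous), from 4 to 0 higher (60 min against asynchronous), from 2 to 4 either way (120 min against 60 min). With libraries divided by their factor, an alternative chosen after seeing the data, it changed in CCNA-GFP from 3 to 5 higher (40 min against mitosis), from 1 to 3 lower (60 min against asynchronous), from 4 to 1 higher (60 min against asynchronous), from 3 to 1 higher (120 min against asynchronous), and in CTCF-AID -IAA from 4 to 8 higher (asynchronous against mitosis), from 1 to 0 lower (60 min against mitosis), from 0 to 2 lower (60 min against asynchronous), from 5 to 3 higher (60 min against asynchronous), from 3 to 1 higher (120 min against asynchronous), from 1 to 4 either way (120 min against 60 min), and in CTCF-AID +IAA from 4 to 8 higher (asynchronous against mitosis), from 0 to 3 lower (60 min against asynchronous), from 4 to 1 higher (60 min against asynchronous), from 3 to 1 higher (120 min against asynchronous). With genes of at least 1 TPM, of which 8 were members, it changed in CTCF-AID -IAA from 1 to 2 either way (120 min against 60 min). With each replicate left out in turn, counts ran in CCNA-GFP from 2 to 4 higher (60 min against asynchronous), from 0 to 1 either way (120 min against 60 min), and in CTCF-AID -IAA from 2 to 5 higher (asynchronous against mitosis), from 0 to 1 lower (60 min against mitosis), from 0 to 1 lower (60 min against asynchronous), from 3 to 4 higher (60 min against asynchronous), from 1 to 3 higher (120 min against asynchronous), from 1 to 2 either way (120 min against 60 min), and in CTCF-AID +IAA from 3 to 7 higher (120 min against mitosis), from 0 to 1 lower (60 min against mitosis), from 0 to 1 lower (60 min against asynchronous), from 2 to 3 higher (60 min against asynchronous), from 1 to 3 higher (120 min against asynchronous), from 0 to 3 either way (120 min against 60 min). Further counts without the replicate block went from 1 to 0 lower (CCNA-GFP 120 min against asynchronous), from 1 to 0 lower (CTCF-AID -IAA 40 min against mitosis), from 1 to 0 lower (CTCF-AID -IAA 50 min against mitosis), from 1 to 0 lower (CTCF-AID +IAA 40 min against mitosis), from 1 to 0 lower (CTCF-AID +IAA 50 min against mitosis), from 5 to 2 higher (CTCF-AID +IAA 90 min against mitosis), from 1 to 0 lower (CTCF-AID +IAA 90 min against mitosis). Further counts with a pseudocount of 0.1 went from 0 to 1 higher (CCNA-GFP 30 min against mitosis). Further counts scaled to the same total went from 0 to 6 lower (CCNA-GFP 40 min against mitosis), from 8 to 3 higher (CCNA-GFP 90 min against mitosis), from 0 to 3 lower (CCNA-GFP 90 min against mitosis), from 0 to 2 lower (CCNA-GFP 120 min against mitosis), from 1 to 4 lower (CCNA-GFP 120 min against asynchronous), from 1 to 5 lower (CTCF-AID -IAA 40 min against mitosis), from 6 to 2 higher (CTCF-AID -IAA 50 min against mitosis), from 1 to 6 lower (CTCF-AID -IAA 50 min against mitosis), from 5 to 3 higher (CTCF-AID -IAA 90 min against mitosis), from 0 to 3 lower (CTCF-AID -IAA 90 min against mitosis), from 0 to 3 lower (CTCF-AID -IAA 120 min against mitosis), from 0 to 4 lower (CTCF-AID -IAA 120 min against asynchronous), from 1 to 6 lower (CTCF-AID +IAA 40 min against mitosis), from 5 to 2 higher (CTCF-AID +IAA 50 min against mitosis), from 1 to 6 lower (CTCF-AID +IAA 50 min against mitosis), from 5 to 2 higher (CTCF-AID +IAA 90 min against mitosis), from 1 to 3 lower (CTCF-AID +IAA 90 min against mitosis), from 0 to 3 lower (CTCF-AID +IAA 120 min against mitosis), from 0 to 2 lower (CTCF-AID +IAA asynchronous against mitosis), from 0 to 4 lower (CTCF-AID +IAA 120 min against asynchronous). Further counts with genes of at least 1 TPM went from 0 to 1 higher (CCNA-GFP 30 min against mitosis). Further counts without replicate 1 went from 1 to 0 lower (CCNA-GFP 120 min against asynchronous), from 1 to 0 lower (CTCF-AID -IAA 40 min against mitosis), from 0 to 1 lower (CTCF-AID -IAA 90 min against mitosis), from 5 to 3 higher (CTCF-AID +IAA 50 min against mitosis). Those without replicate 2 went from 0 to 1 higher (CCNA-GFP 30 min against mitosis), from 0 to 1 lower (CTCF-AID -IAA 90 min against mitosis), from 0 to 1 lower (CTCF-AID -IAA 120 min against mitosis), from 0 to 1 lower (CTCF-AID -IAA 120 min against asynchronous), from 0 to 1 lower (CTCF-AID +IAA 120 min against mitosis), from 0 to 1 lower (CTCF-AID +IAA 120 min against asynchronous). Those without replicate 3 went from 1 to 0 lower (CCNA-GFP 120 min against asynchronous), from 1 to 0 lower (CTCF-AID -IAA 40 min against mitosis), from 1 to 0 lower (CTCF-AID -IAA 50 min against mitosis), from 1 to 0 lower (CTCF-AID +IAA 50 min against mitosis). Those divided by the factor went from 0 to 1 higher (CCNA-GFP 30 min against mitosis), from 1 to 0 lower (CTCF-AID -IAA 40 min against mitosis), from 0 to 2 lower (CTCF-AID -IAA 120 min against asynchronous), from 0 to 2 lower (CTCF-AID +IAA 120 min against asynchronous). Of all genes, scaling left 23.7% to 41.0% higher and 23.5% to 38.6% lower at 40 to 120 min against mitosis, up to 37.5% and 35.2% at 60 min against asynchronous, 26.2% to 26.9% and 24.9% to 29.2% at 120 min against asynchronous, and 24.4% to 26.6% and 21.7% to 27.2% at 120 against 60 min. Over all stage comparisons, scaling to the same total turned the sign of 68 changes called in either setting, 16 of them called in both. Of these, 38 lay in 40 min, 60 min and asynchronous against mitosis and 60 min against asynchronous, and their scaled values follow. These were Spry2 -0.012, Spred2 -0.41, Etv5 -0.25, Fgfr1 -0.13 (CCNA-GFP 60 min against asynchronous), and Spry2 -0.13, Spred2 -0.37, Etv5 -0.56 (CTCF-AID -IAA 60 min against asynchronous), and Spry4 -0.53, Spred1 -0.46, Spred2 -0.20, Etv4 -0.32, Etv5 -0.215, Fgfr1 -0.25 (CCNA-GFP 40 min against mitosis), and Spry4 -1.08, Spred1 -0.58, Spred2 -0.11, Etv4 -0.30, Etv5 -0.068, Fgfr1 -0.054 (CCNA-GFP 60 min against mitosis). Further values were Spred1 -0.70, Etv4 -0.50, Etv5 -0.49 (CTCF-AID -IAA 60 min against mitosis), and Spred2 -0.46, Etv4 -0.29, Etv5 -0.53, Fgfr1 -0.38 (CTCF-AID +IAA 40 min against mitosis), and Spred2 -0.26, Etv4 -0.46, Etv5 -0.57, Fgfr1 -0.18 (CTCF-AID +IAA 60 min against mitosis), and Spred2 -0.52, Dusp6 -0.080, Etv5 -0.43, Fgfr1 -0.15 (CTCF-AID +IAA 60 min against asynchronous). Further values were Etv4 -0.45, Etv5 -0.51, Fgfr1 -0.29 (CTCF-AID -IAA 40 min against mitosis), and Etv5 -0.14 (CTCF-AID +IAA asynchronous against mitosis). The other 30 involved 50, 90 or 120 min, 8 of them called in both settings, from higher to lower (Spred1 -0.38 in CCNA-GFP 90 min, Spred1 -0.32 in CCNA-GFP 120 min, Spred2 -0.34 in CTCF-AID -IAA 50 min, Etv4 -0.35 in CCNA-GFP 90 min, Etv5 -0.48 in CTCF-AID -IAA 50 min, Etv5 -0.56 in CTCF-AID +IAA 50 min, Fgfr1 -0.20 in CTCF-AID -IAA 50 min, Fgfr1 -0.39 in CTCF-AID +IAA 50 min). Division by the factor turned Etv5 (CTCF-AID +IAA 60 min against asynchronous) to -0.027.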
